A study of Mus musculus with 8 samples.

Results

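Immunoglobulin and T cell receptor segments are the gene pieces from which B and T lymphocytes assemble their antigen receptors. They were picked by gene symbol from the authors' deposited table of genes that differ between liver macrophages of mice on a western diet (WD, 4 libraries) and on a normal diet (ND, 4 libraries). The rule took every symbol of the immunoglobulin heavy, kappa and lambda loci and of the T cell receptor alpha, beta, gamma and delta loci, and it found 43 of the 2386 listed genes. Of these, 38 were immunoglobulin and 5 were T cell receptor segments. Both groups are C57BL/6 mice, the labels name no other allele or agent, and the animals' age, the diets' composition and duration and the way the macrophages were isolated are not stated in the labels or headers. Polyadenylated RNA was sequenced, per the labels' protocols.

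A macrophage does not rearrange these loci. In a developing B cell, recombination joins 1 variable (V), in the heavy chain also a diversity (D), and 1 joining (J) segment, and the transcript is spliced to a constant (C) segment that fixes the class of the chain. T cells do the same at their own loci, with alpha and beta chains in most cells and gamma and delta chains in a minority. Each lymphocyte therefore uses few V segments, its descendants use the same ones, and plasma cells carry very large amounts of immunoglobulin RNA.

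The table gives 1 value per gene for the whole comparison. A mean normalized read count is the average over the libraries after scaling for depth, and each log2 fold change divides WD by ND and comes with a standard error (SE). Single libraries and their depths are not analysed here. A replicate range therefore cannot be shown, and every error is the authors' SE over 4 against 4 libraries. The series design speaks of mice, but no label ties a library to an animal, and p-values measure the spread between these libraries. The table itself calls the groups WDV and NDV. Its V has no explanation, and the groups were taken to be WD and ND. The library numbers in the labels do not interleave between the diets, and whatever sequence of handling lies behind the numbers cannot be told apart from diet. A gene was listed when its p-value was below 0.05 and its fold change above 2-fold, so a listed segment had to differ, and a segment outside the table may have failed 1 of these limits or may be unmeasured. In bulk RNA, more cells of a type and more RNA per cell cannot be told apart.

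Examples of V segments of 1 family whose fold changes had opposite signs are shown first. The V exons of 3 members of the Igkv4 family are given because 1 of them was lower and the others were higher in WD. These are mm10 sequences of the GENCODE annotation, read 5′ to 3′ along the minus strand of chromosome 6, and each is the first 300 bases of the exon that encodes most of the V region. Capitals mark bases that differ from, or are inserted relative to, Igkv4-57. Igkv4-57 lies at chr6:69575978-69576277, Igkv4-59 at chr6:69438221-69438520 and Igkv4-57-1 at chr6:69544368-69544667.
Igkv4-57: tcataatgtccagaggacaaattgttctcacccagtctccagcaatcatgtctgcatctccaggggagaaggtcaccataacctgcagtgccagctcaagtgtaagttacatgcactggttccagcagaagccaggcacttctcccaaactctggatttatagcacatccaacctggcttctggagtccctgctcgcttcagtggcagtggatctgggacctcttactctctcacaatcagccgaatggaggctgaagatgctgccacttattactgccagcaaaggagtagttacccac
Igkv4-59: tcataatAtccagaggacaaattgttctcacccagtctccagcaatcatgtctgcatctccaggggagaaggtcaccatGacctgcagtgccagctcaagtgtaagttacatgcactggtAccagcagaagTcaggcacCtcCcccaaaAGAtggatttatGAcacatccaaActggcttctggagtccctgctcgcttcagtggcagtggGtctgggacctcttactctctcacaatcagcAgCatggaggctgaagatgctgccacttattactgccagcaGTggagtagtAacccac
Igkv4-57-1: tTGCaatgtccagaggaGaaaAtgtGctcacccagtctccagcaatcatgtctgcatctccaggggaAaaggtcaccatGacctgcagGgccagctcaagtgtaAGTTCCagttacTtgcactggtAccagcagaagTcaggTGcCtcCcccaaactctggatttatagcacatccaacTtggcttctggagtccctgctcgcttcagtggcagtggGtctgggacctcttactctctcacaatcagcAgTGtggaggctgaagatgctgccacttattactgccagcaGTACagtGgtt

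Over these stretches Igkv4-59 had 18 mismatches to Igkv4-57 and was 94.0% identical to it. Igkv4-57-1 had 26 mismatches, 6 inserted and 6 deleted bases, with 87.6% identity over the 306 columns of the alignment. Deleted bases carry no mark.

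The heavy chain V segments with the largest positive and the largest negative fold change belong to 1 family, Ighv1. Their V exons are given in the same way, from the minus strand of chromosome 12, with capitals where Ighv1-63 differs from Ighv1-39. Ighv1-39 lies at chr12:114914604-114914903 and Ighv1-63 at chr12:115495630-115495929.
Ighv1-39: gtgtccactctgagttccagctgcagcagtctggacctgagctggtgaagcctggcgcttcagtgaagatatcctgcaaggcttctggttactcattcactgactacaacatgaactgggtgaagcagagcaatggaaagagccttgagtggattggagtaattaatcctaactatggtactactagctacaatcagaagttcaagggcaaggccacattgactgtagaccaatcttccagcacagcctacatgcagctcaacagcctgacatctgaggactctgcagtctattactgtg
Ighv1-63: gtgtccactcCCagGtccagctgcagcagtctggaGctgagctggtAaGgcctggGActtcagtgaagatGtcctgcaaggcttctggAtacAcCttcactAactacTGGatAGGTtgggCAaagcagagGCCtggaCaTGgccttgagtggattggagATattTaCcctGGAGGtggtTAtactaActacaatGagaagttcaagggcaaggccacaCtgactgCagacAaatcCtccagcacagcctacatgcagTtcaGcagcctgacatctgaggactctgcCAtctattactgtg

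These differed at 49 of 300 bases, an identity of 83.7%. The 6 listed Ighv1 segments were 82.0 to 89.2% identical to each other over the whole V exon, and the 7 listed Igkv4 segments 84.8 to 94.7%.

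More than 9 in 10 listed segments had a positive fold change. The median mean count of the 43 was 15.7 in the authors' deposited table, beside 37.5 over all listed genes. Among the 43 segments, the authors' deposited table had 39 with a positive and 4 with a negative fold change. Of all 2386 listed genes 29.6% had a positive and 70.4% a negative one. At an adjusted p below 0.05 the authors' deposited table had 22 segments higher, which is 51.2% of the 43, and 1 lower. Over all listed genes 22.0% rose and 61.4% fell at that limit. Of the 17531 genes that received an adjusted p from the authors, 3.88% were listed with a positive and 9.29% with a negative fold change. The remaining 20 segments did not pass. The lowest adjusted p-values above the limit in the authors' deposited table were those of Ighv2-9-1 (0.0503) and Trdv4 (0.0508), and the highest below it was that of Ighv8-8 (0.0398). As the table lists only genes past its own limits, these counts describe the listed segments and are not evidence about segments as a class.

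**Figure D1:**
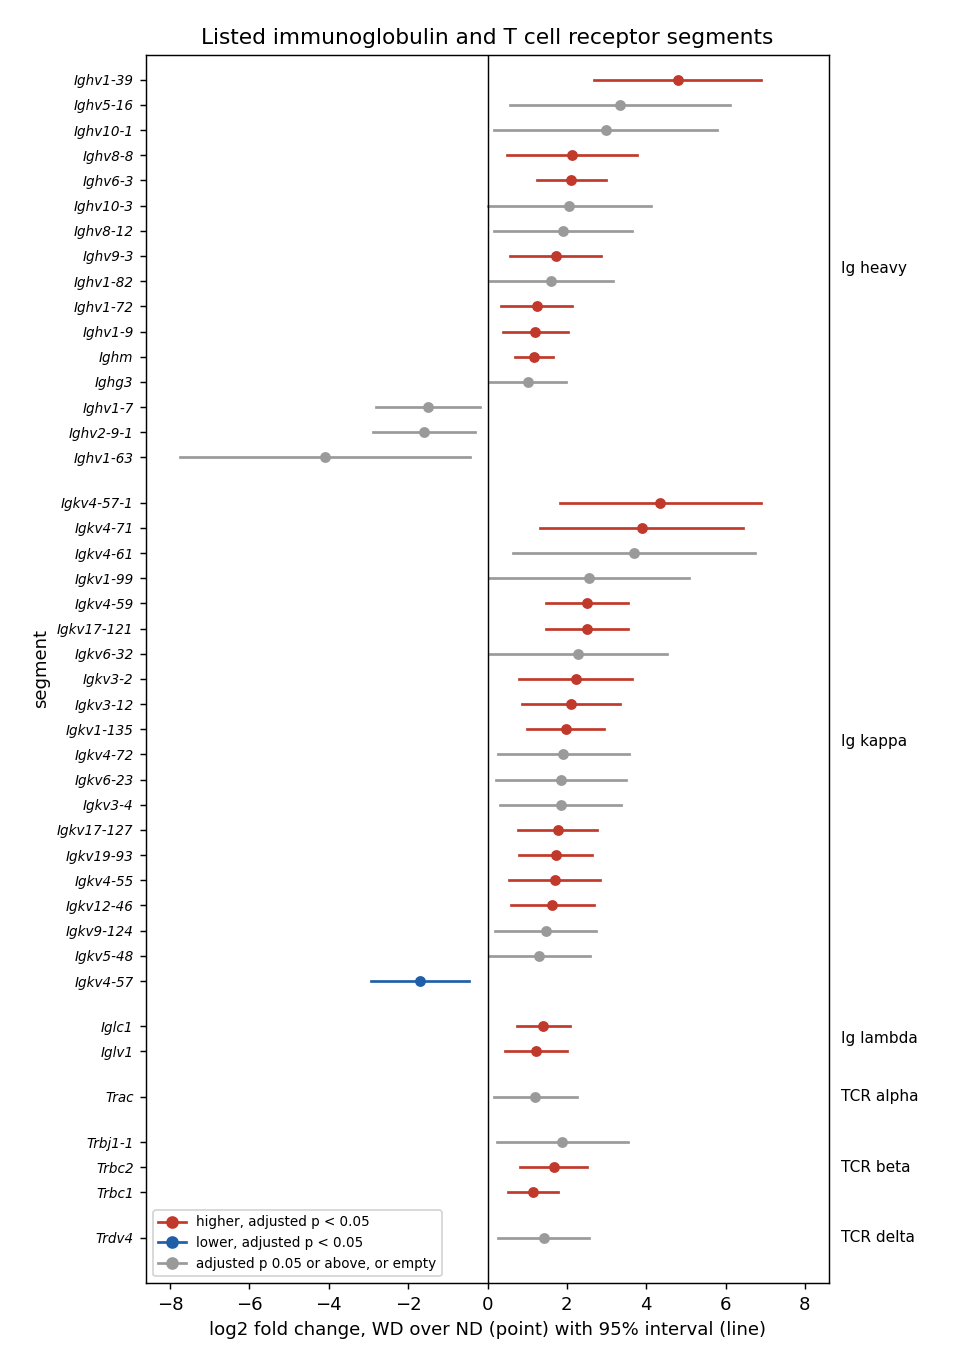
Log2 fold change of WD over ND (horizontal axis, points) with its 95% interval (lines) for the 43 listed segments, grouped by locus and coloured by call. Of the 43 points 39 lie above 0, and Igkv4-57 is the only one called lower.

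Few of the annotated segments were listed. The GENCODE annotation of mm10 holds 476 segments of these loci under the symbols searched that are not pseudogenes, and 43 of them (9.03%) were in the authors' deposited table, beside 13.2% of the 17531 genes with an adjusted p. For immunoglobulins the authors' deposited table listed 38 of 262 (14.5%) and for T cell receptors 5 of 214 (2.34%). How many of the annotated segments the authors tested is unknown, so these shares have another denominator than the shares of tested genes. By kind, 36 V segments, 1 J segment, 6 C segments and no D segment were in the authors' deposited table.

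The constant segments Ighm and Iglc1 had the highest mean counts of the 43 segments in the authors' deposited table. Ighm, the constant segment of IgM (ENSMUSG00000076617, chromosome 12, 113418558 to 113422730, minus strand), had a mean normalized count of 1691 in the authors' deposited table, 60.0% of the sum over the 43 segments. Per kilobase of exon its level was 896 in the authors' deposited table, the highest of the 43 segments. The authors' deposited table had it 2.25-fold higher in WD, at log2 1.17 ± 0.24 and an adjusted p of 1.21e-05, with a 95% interval from 1.62 to 3.12-fold. Naive B cells and IgM plasma cells both transcribe it, as a membrane and a secreted form that the table does not separate.

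The other heavy chain classes were mostly outside the table. Ighg3, the constant segment of IgG3, was listed at log2 1.03 ± 0.49 and a mean count of 45.9 without passing in the authors' deposited table (adjusted p 0.104). Ighd, Ighg1, Ighg2b, Ighg2c, Ighe and Igha, which encode the constant parts of IgD, the other IgG classes, IgE and IgA, were not listed. Igkc, the constant segment that every kappa chain uses, was not listed either. The kappa V segments below were thus listed without the segment to which they are spliced.

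The lambda pair was listed at both ends of the chain. Iglv1 and Iglc1 (chromosome 16) encode the variable and constant part of the lambda 1 chain, the most used lambda chain of laboratory mice. The authors' deposited table had Iglc1, at a mean count of 124, 2.66-fold higher in WD (log2 1.41 ± 0.35, adjusted p 0.000352). It had Iglv1, at a mean count of 110, 2.33-fold higher (the authors' deposited table, log2 1.22 ± 0.40, adjusted p 0.0114). Per kilobase of exon both stood close together, at 273 for Iglc1 and 280 for Iglv1 in the authors' deposited table, and their intervals overlapped. The constant segments Iglc2, Iglc3 and Iglc4 were not listed.

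Heavy chain V segments moved in both directions, but only rises passed. Of 14 listed, 11 had a positive and 3 a negative fold change, and 6 rose in the authors' deposited table. Ighv1-39 had the largest change of all 43 segments, and the authors' deposited table had it 27.8-fold higher at a mean count of 26.9 (log2 4.80 ± 1.07, 95% interval 6.48 to 119-fold, adjusted p 6.96e-05). Ighv6-3, at a mean count of 75.6, was 4.32-fold higher per the authors' deposited table (log2 2.11 ± 0.45, adjusted p 2.27e-05). Its SE was well below that of Ighv1-39. In the authors' deposited table Ighv1-9, the listed heavy chain V segment with the highest mean count (98.4), rose 2.30-fold, and Ighv9-3 rose 3.29-fold. Ighv1-72 and Ighv8-8 completed the 6 and the authors' deposited table put their log2 values at 1.24 ± 0.46 and 2.13 ± 0.84.

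The 3 heavy chain V segments with negative values did not pass. Ighv1-63, shown above, stood at log2 -4.10 ± 1.86 at a mean count of 11.3 in the authors' deposited table (adjusted p 0.0836). Its 95% interval of the fall ran from 1.37 to 215-fold, so its size is barely known. Ighv2-9-1 and Ighv1-7 stood at -1.60 ± 0.65 and -1.49 ± 0.67 in the authors' deposited table. Positive values without a pass came from Ighv5-16, Ighv10-1, Ighv10-3, Ighv8-12 and Ighv1-82, at log2 3.34, 2.98, 2.06, 1.91 and 1.61 with SE of 1.41, 1.43, 1.05, 0.89 and 0.79 in the authors' deposited table. Ighv10-1 and Ighv10-3 are the only annotated members of their family that are not pseudogenes, and their V exons are 96.8% identical.

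Kappa V segments made up the largest group. Of 20 listed, 19 had positive fold changes, 11 rose and 1 fell, with mean counts between 1.36 and 49.3 in the authors' deposited table. Igkv4-59 had the smallest adjusted p among them (1.75e-05) and per the authors' deposited table was 5.69-fold higher in WD (log2 2.51 ± 0.52). Igkv17-121 was 5.68-fold higher per the authors' deposited table, at log2 2.51 ± 0.53 and an adjusted p of 2.05e-05. Its relative Igkv17-127, 96.2% identical in the V exon, was 3.41-fold higher per the authors' deposited table (log2 1.77 ± 0.51). These 2 are all of the Igkv17 family that is not pseudogene, and reads from stretches that they share cannot be assigned with certainty to either.

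The other kappa rises were spread over 5 families. Igkv1-135 (log2 1.98 ± 0.50), Igkv19-93 (1.72 ± 0.47) and Igkv12-46 (1.64 ± 0.53) rose in the authors' deposited table, each as the only called member of its family. Igkv3-12 and Igkv3-2 rose in the authors' deposited table, at log2 2.10 ± 0.63 and 2.23 ± 0.73. In the Igkv4 family, Igkv4-57-1 (4.36 ± 1.29), Igkv4-71 (3.88 ± 1.30) and Igkv4-55 (1.69 ± 0.59) rose besides Igkv4-59 in the authors' deposited table. Igkv4-57-1 and Igkv4-71 had mean counts of only 5.82 and 4.32 in the authors' deposited table, and the 95% interval of Igkv4-57-1 ran from 3.55 to 118-fold.

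Igkv4-57 was the only listed segment called lower. Its fold change was log2 -1.70 ± 0.63, or 3.25-fold lower, at a mean count of 22.4 in the authors' deposited table (adjusted p 0.0264, 95% interval 1.39 to 7.62-fold). The intervals of Igkv4-57 and of Igkv4-59, at a similar mean count of 26.5 and with the sequence shown above, lay on opposite sides of 0 in the authors' deposited table. The difference between these 2 genes was not tested, since both values come from the same libraries and no values per library were analysed. Of the distinct 50-base stretches of Igkv4-57 transcripts, 50.8% occur unchanged in transcripts of 18 other genes, and of those of Igkv4-59 74.3% in 26 others.

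The 8 kappa V segments that did not pass all had positive values. Igkv6-32 had the highest mean count among them, 43.6, at log2 2.28 ± 1.14 in the authors' deposited table. Igkv4-61 had the lowest mean count of all 43 segments (1.36), and its adjusted p was empty in the authors' deposited table. The others were Igkv1-99, Igkv4-72, Igkv6-23, Igkv3-4, Igkv9-124 and Igkv5-48, for which the authors' deposited table had log2 fold changes of 2.57, 1.91, 1.85, 1.85, 1.47 and 1.30.

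Listed V segments came from the whole length of both large loci. Distances are between the middles of the genes in the mm10 annotation. On chromosome 12 they ran from Ighv2-9-1, 349 kb from Ighm, to Ighv1-82 at 2532 kb. On chromosome 6 they ran from Igkv3-2, 27.9 kb from Igkc, to Igkv1-135 at 3117 kb. Called rises lay in both the near and the far part of each locus, while the 7 listed Igkv4 members sat together between 1119 and 1500 kb.

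**Figure D2:**
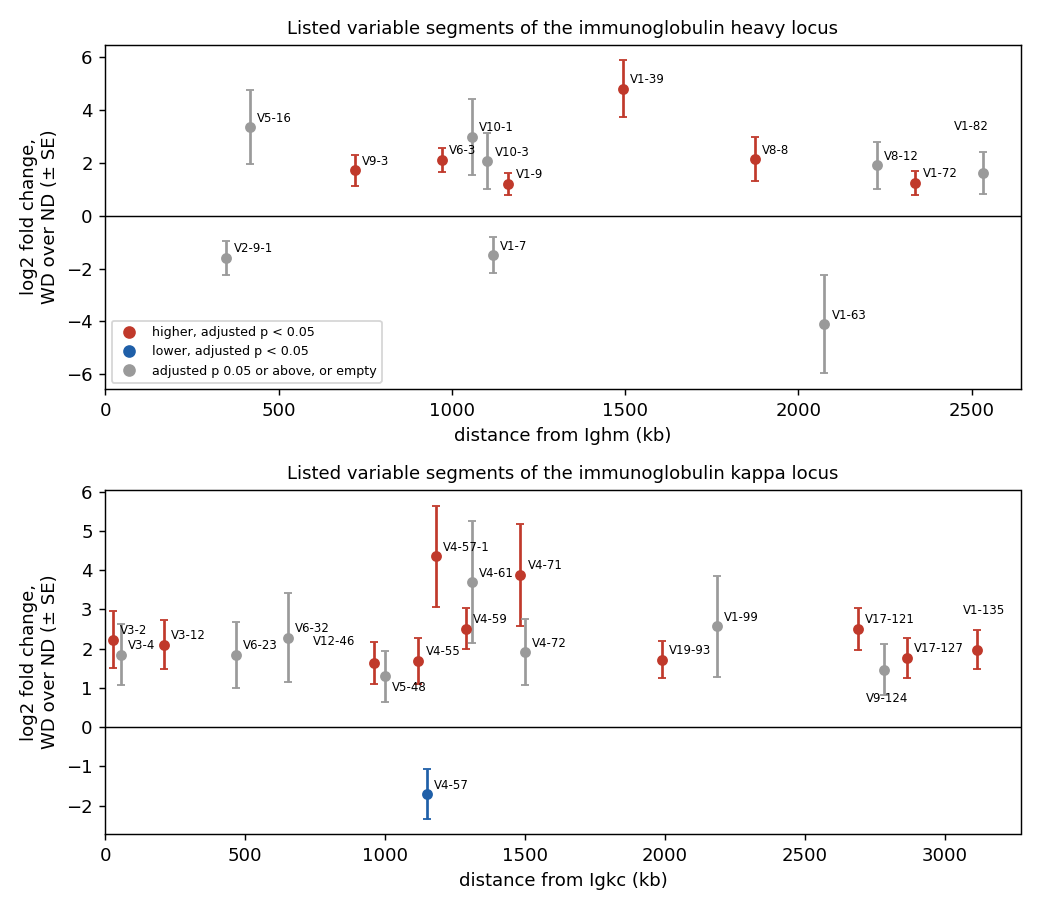
Log2 fold change of WD over ND with its SE (vertical axis) against distance in kb from Ighm for 14 heavy chain V segments (top) and from Igkc for 20 kappa V segments (bottom), coloured by call. Igkv4-57, at 1150 kb, lies below 0 between neighbours that lie above it.

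T cell receptor segments were few, and the constant beta pair was called. Trbc1 (ENSMUSG00000076490, chromosome 6, 41538218 to 41539881, plus strand) had a mean count of 62.0 and per the authors' deposited table was 2.22-fold higher in WD (log2 1.15 ± 0.32, 95% interval 1.44 to 3.44-fold, adjusted p 0.00209). Trbc2 (ENSMUSG00000076498, chromosome 6, 41546730 to 41548352) had a mean count of 28.0 and per the authors' deposited table was 3.17-fold higher (log2 1.66 ± 0.43, 95% interval 1.76 to 5.70-fold, adjusted p 0.000822). Both encode the constant part of the beta chain, and a beta chain uses 1 of them. Their intervals overlap. Per kilobase of exon their levels were 82.7 for Trbc1 and 40.5 for Trbc2 in the authors' deposited table.

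These genes are near copies, which limits how far their reads can be told apart. Their first exon is 375 bases long in both and differs at 1 base, and they share 283 distinct 50-base stretches, 40.5% of those of Trbc1 and 44.0% of those of Trbc2. The differences gather in the later coding exons, given here joined, from mm10 chr6:41539114-41539662 for Trbc1 and chr6:41547610-41548178 for Trbc2 on the plus strand, with capitals where Trbc2 differs. They number 22 of 143 bases.
Trbc1: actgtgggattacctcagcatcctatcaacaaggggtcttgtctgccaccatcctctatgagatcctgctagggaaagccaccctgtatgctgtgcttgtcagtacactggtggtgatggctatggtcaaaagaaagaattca
Trbc2: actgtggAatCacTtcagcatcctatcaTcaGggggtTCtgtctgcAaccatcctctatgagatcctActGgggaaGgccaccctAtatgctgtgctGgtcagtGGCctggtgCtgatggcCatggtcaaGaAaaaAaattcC

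The remaining T cell receptor segments did not pass. Trac, the constant segment of the alpha chain (chromosome 14), stood at log2 1.21 ± 0.54 and a mean count of 10.6 in the authors' deposited table (adjusted p 0.0766). Trdv4, a V segment of the delta chain, stood at 1.41 ± 0.58 and Trbj1-1, the only listed J segment, at 1.88 ± 0.84 in the authors' deposited table. No V segment of the alpha or beta chain was listed, of 108 and 22 annotated without pseudogenes. Trdc, the delta constant segment, was not listed. Tcrg-C4, a constant segment of the gamma chain that carries an older style of symbol and so falls outside the rule, rose per the authors' deposited table, 9.20-fold at a mean count of 7.44 (log2 3.20 ± 0.87, adjusted p 0.00158).

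Most immunoglobulin segments had wider errors than other listed genes of like mean count. Each segment was set beside all other listed genes whose mean count lay within 1.25-fold of its own, 50 to 214 genes. The SE in the authors' deposited table was above the median of those genes for 37 of 38 immunoglobulin segments, the exception being Ighv8-8, and above 90% of them for 28. The ratio of a segment's SE to that median in the authors' deposited table had a median of 1.52 and ran from 0.943 to 3.86. It was highest for Ighv10-1, followed by Igkv6-32 (3.59), Ighv1-63 (3.50) and Ighv1-39 (2.86) in the authors' deposited table. For the 5 T cell receptor segments it ran from 0.982 to 1.16 in the authors' deposited table, with none above 90% of its neighbours. The ratio of Ighm was 1.10 in the authors' deposited table. All these genes were listed at a p-value below 0.05, so a larger fold change leaves room for a larger SE. At mean counts of 10 to 100, positive immunoglobulin segments had a median log2 fold change of 1.77 in the authors' deposited table. Other positive listed genes had 1.23. The part of this limit in the wide errors was not tested. Values per library, which would show where the wide errors come from, were not analysed here.

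**Figure D3:**
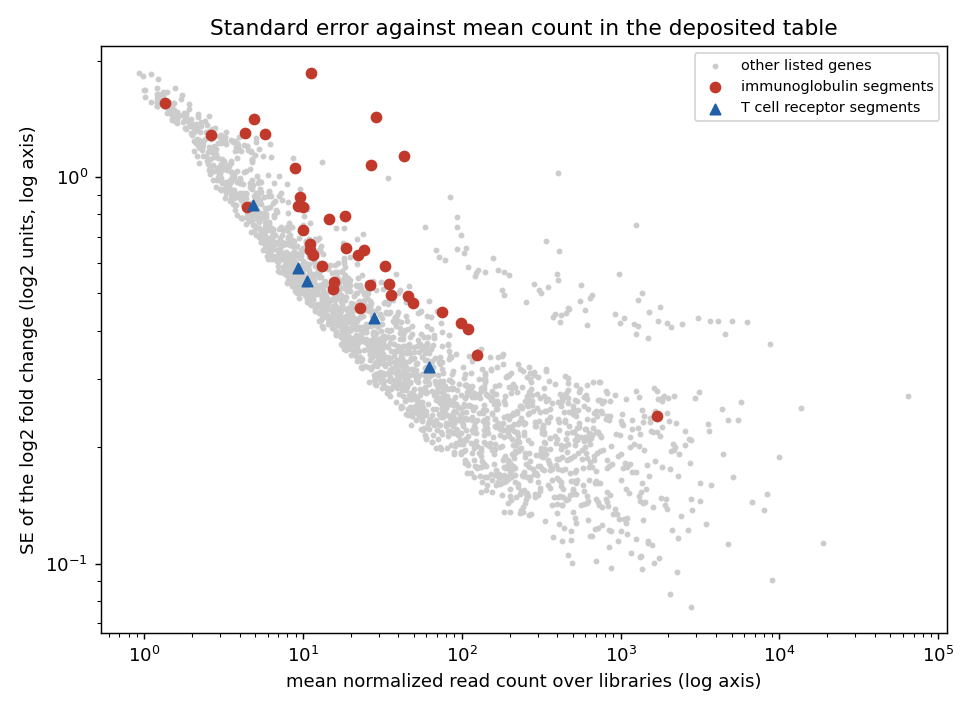
SE of the log2 fold change (vertical log axis, log2 units) against mean normalized read count (horizontal log axis) for the 2386 listed genes, with 38 immunoglobulin and 5 T cell receptor segments marked. Most immunoglobulin segments sit in the upper part of the genes of like mean count (28 of 38 above 90% of them), and Ighv10-1, Igkv6-32, Ighv1-63 and Ighv1-39 stand farthest above them.

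Segments of 1 family share sequence, and how the authors' counting treated reads with several matches is not given in the sources used here. Of 42 segments long enough to hold a 50-base stretch, 34 shared at least 1 with transcripts of another gene and 8 shared none, with a median share of 22.7%. Ighm, Iglc1, Trac, Trdv4, Ighv5-16, Igkv19-93, Igkv5-48 and Igkv6-32 shared none. The share was highest for Ighv1-72, at 92.5%, so its rise may not belong to this gene alone. It was over 50% for 6 segments, among them Igkv3-12 (58.4%), Igkv4-55 (53.3%) and the lower Igkv4-57. Ighv1-39 shared 7.28% and Ighv6-3 14.0%. No exon of a listed segment overlapped an exon of another annotated gene on either strand.

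Genes that work with these receptors were counted by list. Of the 17531 genes with an adjusted p, the authors' deposited table listed 526 as higher and 1464 as lower at the limit. Genes that passed the adjusted p limit but changed less than 2-fold are missing from these counts and from those of the lists. How many genes of each list the authors tested is unknown. Of 31 genes of the T cell receptor complex and its signalling, the authors' deposited table had 9 higher and none lower at the limit, 3 more listed without passing, and 19 not listed. The median log2 fold change of the 12 listed was 1.52, beside 1.38 over all listed genes with a positive fold change. Ctla4, an inhibitory receptor of activated and regulatory T cells, rose in the authors' deposited table at log2 2.03 ± 0.45, and so did Thy1, a surface protein of T cells, at 1.40 ± 0.35. Tcf7, Pdcd1, Cd28, Cd6, Cd8a and Bcl11b also rose in the authors' deposited table, with log2 fold changes from 1.08 to 2.26. The CD3 genes Cd3d, Cd3e and Cd3g, whose products carry the receptor's signal, were not listed.

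Of 22 genes of the B cell receptor complex and other B cell markers, Ms4a1, which encodes CD20, rose in the authors' deposited table (adjusted p 0.0196) and Pou2af1, a coactivator of immunoglobulin promoters, was listed at 1.01 ± 0.42 without passing. The other 20, among them Cd79a and Cd79b, were not listed. This rise of 1 gene among 22 is near the share of all tested genes that were listed and called higher, 526 of 17531. Of 17 plasma cell markers, 3 rose in the authors' deposited table. Slamf7 (1.71 ± 0.19) and Tent5c (1.08 ± 0.21), which other immune cells also express, were among them. So was Derl3 (1.08 ± 0.29), which encodes a protein of the endoplasmic reticulum. Jchain, Sdc1, Mzb1, Xbp1 and Prdm1, which mark antibody secreting cells more closely, were not listed. None of 14 genes of V(D)J recombination and class switching, such as Rag1 and Rag2, was listed.

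Markers of other cells moved in the same comparison. Of 20 markers of NK cells and cytotoxic lymphocytes, the authors' deposited table had 14 that rose and none that fell, with the smallest adjusted p-values for Klrk1 (log2 1.87 ± 0.20) and Klrd1 (1.38 ± 0.21). NK cells transcribe some of the T cell genes named above, Thy1 among them. Of 20 markers of gamma delta and innate-like T cells, 16 of which have their symbol in the annotation, Tcrg-C4 rose and Maf and Sox13 fell per the authors' deposited table, at log2 -1.87 ± 0.18 and -2.48 ± 0.34. Maf is also a macrophage gene. All 15 markers of sinusoidal endothelium fell in the authors' deposited table, with log2 fold changes from -4.12 to -1.38. Of 18 macrophage and Kupffer cell genes, Fcgr1 rose in the authors' deposited table (1.38 ± 0.13), which lacks the other 17. Summed mean counts in the authors' deposited table were 273 over the 12 listed genes of the T cell receptor list. They were 80.8 over 2 genes of the B cell list and 3327 over 15 of the NK cell list. Genes outside the table are missing from these sums, which therefore do not give amounts of these cells. No level per diet is given in the table, so the part of other cell types in the segments' values was not tested.

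**Figure D4:**
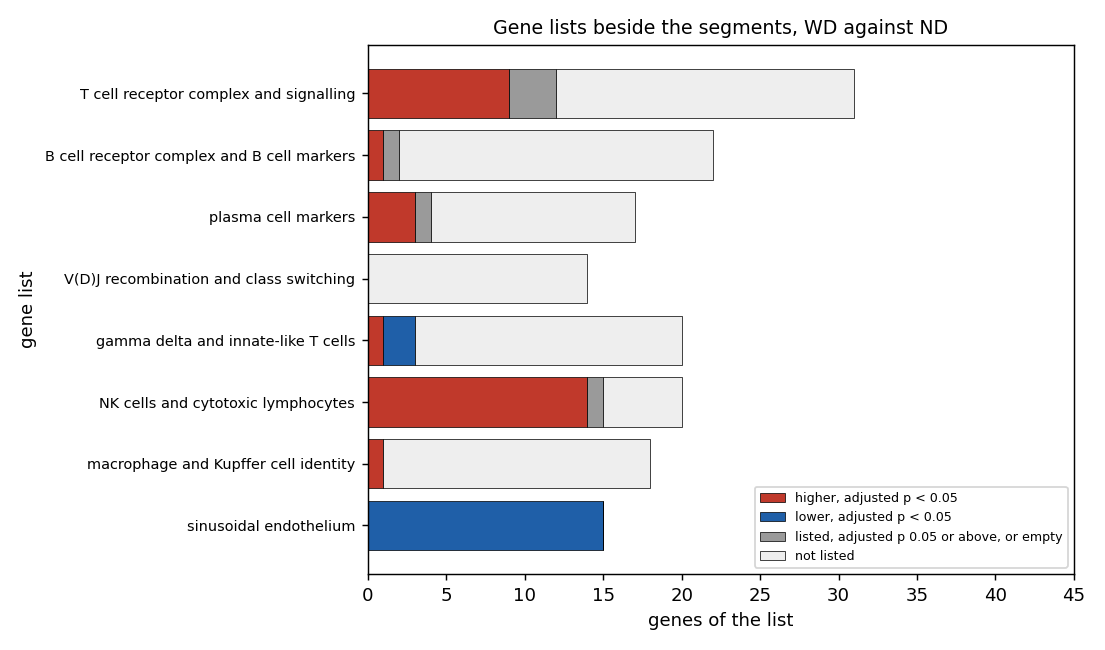
Genes of each list (horizontal axis, number of genes) that were called higher or lower in WD, listed without passing, or not listed. The NK cell list has 14 of 20 genes called higher, the T cell receptor list 9 of 31 and the B cell list 1 of 22. Over all genes with an adjusted p, 526 of 17531 were both listed (past 2-fold) and called higher.

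The authors' own enrichment of genes with a positive fold change rests on segments for several terms. In the authors' deposited table, 38 of the 39 segments with a positive fold change appear in at least 1 of 16 Gene Ontology (GO) terms, and the exception is Trbj1-1. The term complement activation, classical pathway held 17 genes, and all 17 were segments in the authors' deposited table (6.66-fold enriched, Benjamini p 6.45e-07). These were 13 heavy chain segments, Iglc1, and the T cell receptor segments Trbc1, Trbc2 and Trdv4, and 10 of the 17 were called higher. The same 17 segments were among 20 genes of B cell receptor signaling pathway (Benjamini p 1.32e-09) and 19 of phagocytosis, engulfment (Benjamini p 8.17e-09) in the authors' deposited table.

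Kappa and lambda V segments were in none of the terms named above, but shared others with heavy chain segments. Adaptive immune response held 3 heavy chain and 6 kappa or lambda segments among 35 genes in the authors' deposited table (Benjamini p 2.75e-22). Immunoglobulin production held 21 genes, of which 20 were kappa or lambda segments, with 12.1-fold enrichment and a Benjamini p of 2.41e-13 in the authors' deposited table. The same number of such segments, 20, was among the 58 genes of immune response in the authors' deposited table. Of the 20 in each term, 12 had an adjusted p below 0.05. No segment was in a KEGG term of the authors' deposited table.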

How the data were processed

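RNA from 4 ND and 4 WD libraries was compared by the authors, and 1 table made by them was used. Libraries were grouped by diet label. Per the submitters' processing notes the build was mm10, and DESeq, edgeR, featureCounts, HISAT2, STAR, STAR-Fusion and StringTie were among the tools, with no role or version. Per the file headers, the deposited columns are those that DESeq2 writes: a signal (mean normalized read count), a log2 fold change with its SE, a test score (fold change over SE), a p-value and an adjusted p-value. Whether fold changes were shrunk is not given in the sources used here. The deposited enrichment gives a count of genes, a fold enrichment ratio and a Benjamini p-value per term. Depth per library is unknown, and only the SE gives precision.

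A listed gene, which had thus also passed the 2-fold limit, was called at the authors' adjusted p below 0.05. The 95% intervals are the fold change ± 1.96 SE. The number of tested genes, 17531, was recovered from the ratio of p to adjusted p, a step that returned 15000 on 1 simulated table of 15000 genes. It leaves out genes with no adjusted p, 77 of those listed, Igkv4-61 among them. Every called segment is named, and of other lists up to 8 called members, in order of p, plus the CD3, CD79 and Ms4a1 genes. One called gene of the T cell list is not reported here. Bcl11b, the ninth called T cell gene, Pou2af1, and genes named as not listed were chosen after their values were seen. The members and the 8 gene lists were chosen with earlier results of these data known. Positions and exon sequences come from GENCODE M21 (mm10), and symbols and gene IDs of all 43 segments matched it. Biopython 1.88 aligned V exons. The segments' biotype was taken from this annotation, as the table holds none.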

Additional observations from a re-analysis of the deposited data

How the results depend on the processing

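With the limit on the adjusted p at 0.01, 11 immunoglobulin segments were higher and 0 lower. At 0.1, 4 immunoglobulin segments were lower and 5 T cell receptor segments higher. At an unadjusted p below 0.05, which is the whole table, these counts were 34 immunoglobulin segments higher and 4 lower, and 5 T cell receptor segments higher. With Bonferroni adjustment over 17531 genes, 4 immunoglobulin segments (Ighm, Ighv6-3, Igkv17-121 and Igkv4-59) were higher and 0 lower, and 0 T cell receptor segments were higher. With a 95% interval wholly beyond 2-fold, 7 immunoglobulin segments were higher and 0 lower, and 0 T cell receptor segments were higher; Ighm, Trbc1 and Trbc2 all missed it. The other 15 of 28 recomputed counts stayed within 1.5 times the reported one, among them 17 higher immunoglobulin segments at a mean count of at least 10. Many of these 15 could not have moved and say nothing about stability. No listed segment is annotated as a pseudogene, so leaving out pseudogenes removed none. No listed T cell receptor segment was lower by the authors' test at any limit, the unadjusted p included, because all 5 had positive fold changes. Segments that were not listed could not be counted at any limit. Leaving out a library, another normalization or another count model could not be run on a table without values per library. No paired analysis was possible because the table carries no values per library. Low counts limit the segments: 12 of 43 had a mean count below 10.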
